A study of Mus musculus with 11 samples.

Results

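Leukemias that arose in 3 mice of the same genotype were compared with each other by RNA sequencing. Each was a B-cell acute lymphoblastic leukemia (B-ALL), a cancer of early B cell precursors, from a C57BL/6J mouse that carried 1 functional copy of Ebf1 and 1 of Pax5 (Ebf1+/- Pax5+/-, called dHet). The leukemic cells came from the lymph node of mice 686, 713 and 760, and 2 libraries were deposited for each, so 6 of the 11 libraries of the series were compared here. The other 5 served as a reference only. They were 3 libraries of dHet proB cells (Ebf1+/- Pax5+/- Rag2-/-, c-Kit positive cells of the fetal liver, cultured over an OP9 feeder layer with the cytokines IL-7, Flt3L and SCF) and 2 of wt proB cells (Ebf1+/+ Pax5+/+ Rag2+/+, Fraction BC of the bone marrow). The labels give no age or sex, and they do not say whether the libraries of 1 leukemia came from separate cultures, extractions or cells, so every p-value below measures the spread between such libraries, which may be technical. Each leukemia is a single mouse.

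EBF1 and PAX5 are transcription factors that together start and maintain the B cell program, switching on the genes of the pre-B cell receptor and holding down genes of other lineages. Mice with reduced doses of such factors can develop leukemias of cells halted at an early B cell stage, in which further changes differ from animal to animal. Tumors of 1 genotype can therefore share a lineage program while differing in antigen presentation, receptors, metabolism and chromosome content.

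Expression was given as FPKM, fragments scaled to transcript length and to the size of the library, and differences were taken on log2(FPKM + 1), which understates changes of weakly expressed genes. Of 24319 genes in the tables, 10640 had an FPKM of 1 or more in at least 2 of the 6 libraries and were tested. The deposited FPKM of a library summed to between 578240 and 638953, and 10007 to 10144 genes reached an FPKM of 1. Markers of B cell progenitors fitted the label: all 20 on the list were tested, and their FPKM summed to 7844 and 7794 in 686, 10386 and 10406 in 713 and 11473 and 10379 in 760. The summed T cell markers were far lower at 32.1 and 31.8 in 686, 33.4 and 32.4 in 713 and 33.6 and 33.2 in 760.

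Libraries of 1 leukemia were much more alike than libraries of different leukemias. The correlation of log2 values across genes, given as a description, was 0.979 to 0.993 within a leukemia, 0.952 to 0.965 between 686 and 760, 0.926 to 0.942 between 686 and 713 and 0.919 to 0.923 between 713 and 760. Of the sum of squares over all genes tested, 84.3% lay between leukemias. The leading principal component (60.5% of the variance) set 713 apart from the others, and the next (24.7%) separated 686 from 760.

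An F test over the 3 leukemias (limma, Benjamini-Hochberg adjusted over all 10640 genes) called 5073 genes (47.7%) at an adjusted p under 0.05, and 1712 of all tested genes (16.1%) also differed by at least 2-fold between the highest and the lowest leukemia. Leukemia 713 stood furthest apart. Between 713 and 760, 4526 genes differed (42.5% of those tested), between 686 and 713, 4104 (38.6%), and between 686 and 760, 1990 (18.7%, with 9.66% higher in 686 and 9.04% higher in 760). Leukemia 713 alone was above both others, with no difference between those at the threshold, for 1111 genes (10.4%) and below both for 1084 (10.2%). The same counts were 323 (3.04%) and 300 (2.82%) for 760, and 235 (2.21%) and 175 (1.64%) for 686, while 835 genes (7.85%) differed in all 3 comparisons. Leaving out either library of 713 brought the F test down to as few as 2654 genes, and estimating the spread from all 11 libraries gave 2466. For a single gene an exact permutation test on 3 pairs of libraries cannot go below p = 0.0667, so calls rest on the spread shared across genes.

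A missed test does not show that a gene is constant, so constancy was read from intervals. A gene with a mean FPKM of 10 or more was called constant where the 95% confidence intervals of all 3 pairwise differences lay within 2-fold. This held for 4889 of 6413 genes (76.2%), and for 2492 (38.9%) at a margin of 1.5-fold. The F test and constancy are not opposites: 1814 constant genes (37.1% of them) passed the F test with a small difference, and 436 of the 6413 genes (6.8%) were neither called nor constant.

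**Figure D1:**
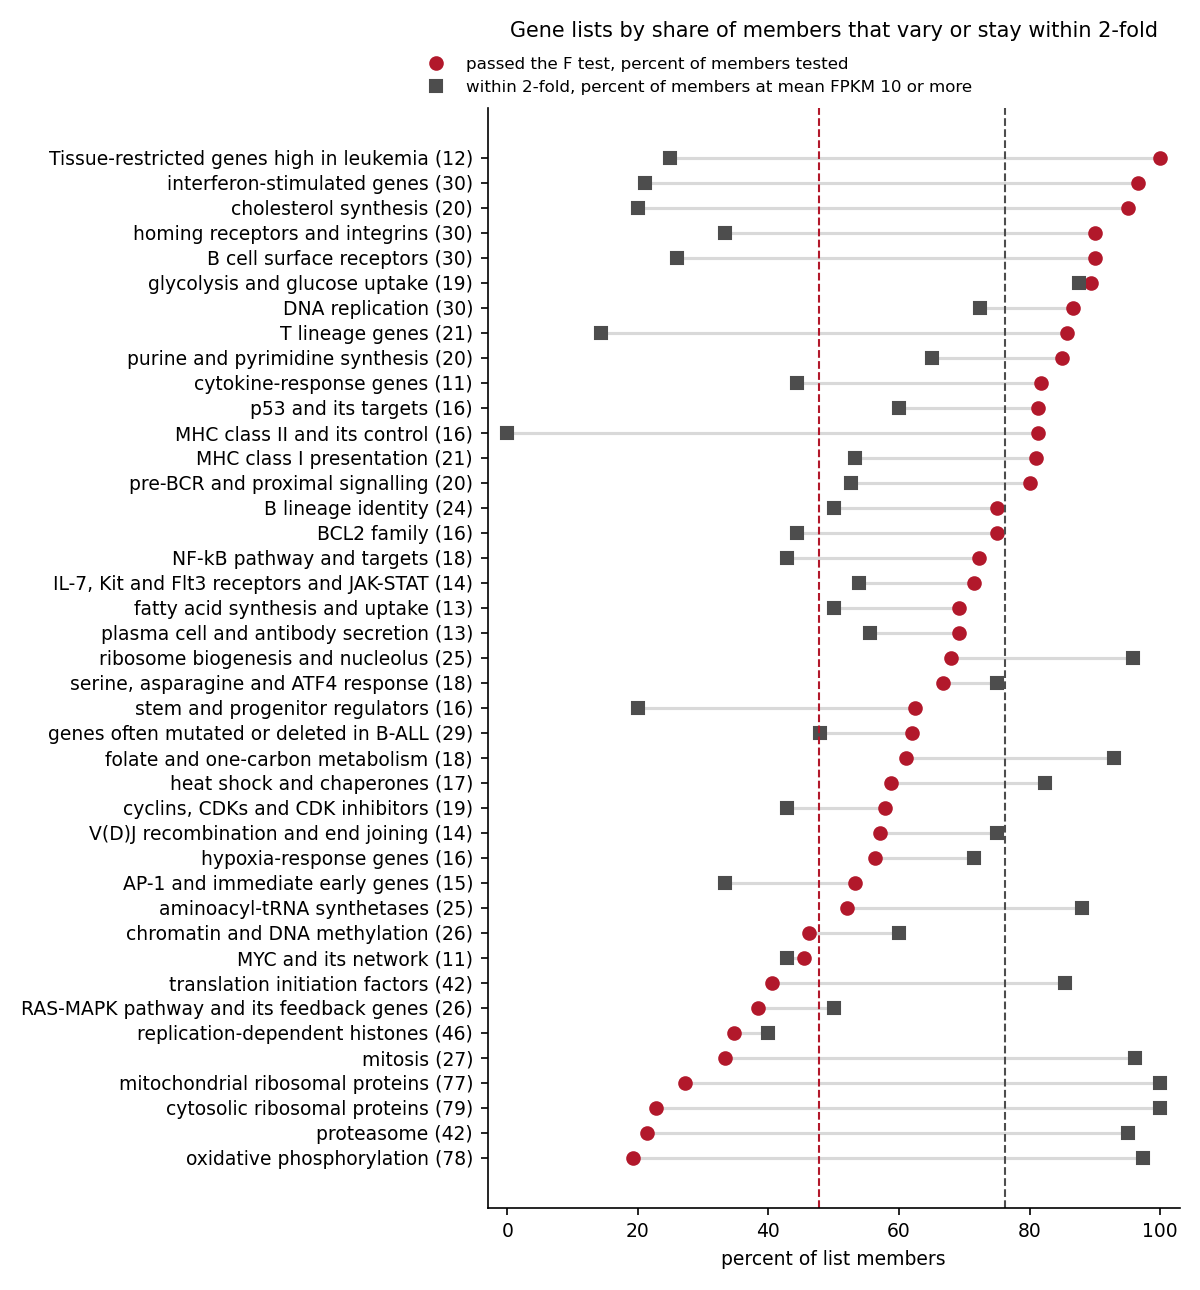
Share of the members of each gene list that passed the F test among the 3 leukemias (circles, percent of members tested, number in parentheses) and share that stayed within 2-fold (squares, percent of members with a mean FPKM of 10 or more). Dashed lines give the shares over all genes, 47.7% and 76.2%; interferon, cholesterol, surface receptor and homing lists lie to the right for circles, and ribosomal, proteasome and respiratory chain lists to the right for squares.

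The factors that define the genotype were at similar levels. Ebf1 was at FPKM 169.9 and 151 in leukemia 686, 212 and 185 in 713 and 189 and 155 in 760, with both libraries of 713 above those of 686 and 760 overlapping 686 and 713. Its F test gave an adjusted p of 0.201 (limma), and no interval of a pairwise difference reached beyond 0.62 on the log2 scale. Pax5 was at 52.8 and 46.2 in leukemia 686, 38.1 and 40.7 in 713 and 35.3 and 51.7 in 760, with 713 below 686 and 760 overlapping both (adjusted p = 0.363). Rag1, a subunit of the recombinase that cuts antigen receptor genes, was at 16.9 and 14.6 in leukemia 686, 20.4 and 17.7 in 713 and 14.5 and 15.1 in 760 and was constant.

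Housekeeping machinery was even. All 78 cytosolic ribosomal protein genes at a mean FPKM of 10 were constant, and 18 of 79 tested (22.8%, against 47.7% of all genes) passed the F test. That second count moved with the libraries used, to 3 without either library of 713, 5 without either of 686, 38 and 36 without library 1 and 2 of 760, and 1 with the spread of all 11 libraries. Against 76.2% of all genes at this level, mitochondrial ribosomal proteins were constant in 77 of 77, oxidative phosphorylation genes in 72 of 74, mitosis genes in 25 of 26 and proteasome subunits in 38 of 40. Among the most abundant constant genes, Rps18, a protein of the small ribosomal subunit, was at 2692 and 2770.5 in leukemia 686, 2948 and 2965 in 713 and 3101 and 2689.5 in 760. Tmsb10, which binds actin monomers, was at 4292 and 4723 in leukemia 686, 4298 and 4408 in 713 and 4704 and 4365 in 760. For Tmsb10 the leukemias overlapped, and for Rps18 both libraries of 713 lay above those of 686, with 760 spanning the range. The narrowest interval over all genes belonged to Sept7, a cytoskeletal GTPase, at 141 and 132 in leukemia 686, 137 and 136 in 713 and 135 and 136 in 760, where no difference could exceed 0.18 on the log2 scale. Psmc3, an ATPase of the proteasome, was likewise even at 232 and 230.2 in leukemia 686, 232 and 229 in 713 and 241 and 224 in 760. Some families held an exception: the single ribosomal protein gene that differed by 2-fold was Rpl3l, a paralog of Rpl3 known from muscle, at 0.363 and 0.235 in leukemia 686, 5.18 and 5.72 in 713 and 0.474 and 0.257 in 760, and Psma8, a testis form of a proteasome subunit, was at 11.2 and 10.1 in leukemia 686, 0 and 0 in 713 and 0 and 0 in 760. Rpl3l was raised in 713 and Psma8 detected in 686 alone, and the filter took each in through that leukemia.

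**Figure D2:**
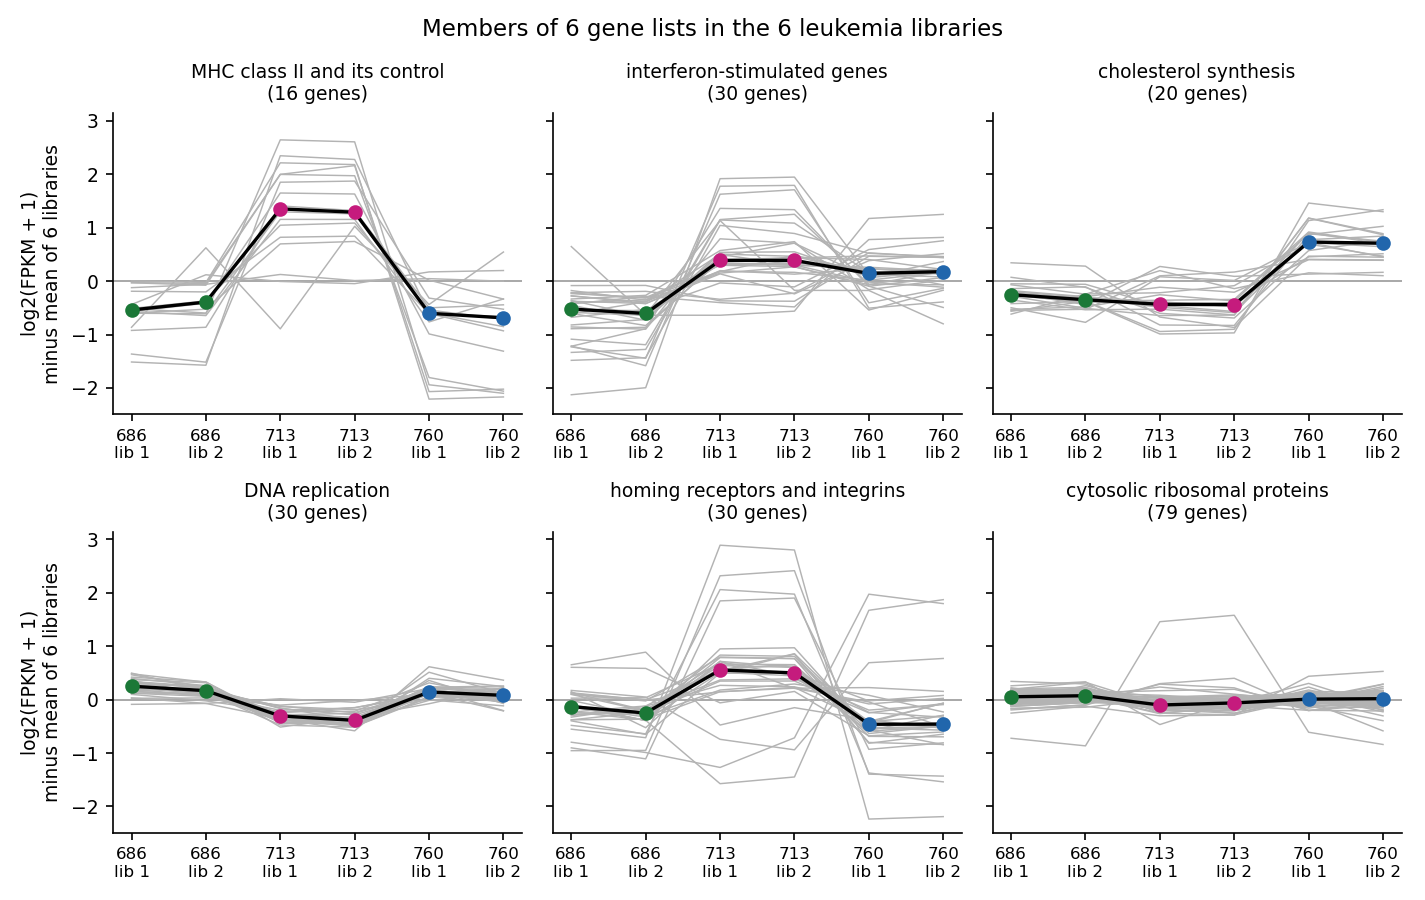
Members of 6 gene lists in each of the 6 leukemia libraries, as log2(FPKM + 1) minus the gene's mean over the 6 (grey lines, 1 per gene; black line and coloured points, median). Class II and homing medians peak in 713, the cholesterol median in 760, the interferon median is lowest in 686, DNA replication is lowest in 713, and ribosomal proteins lie flat apart from Rpl3l in 713.

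The sharpest program difference was in MHC class II, the proteins that present peptides to helper T cells and that normal B cell precursors begin to express as they mature. Of 16 list members tested, 13 passed the F test (81.2%), all 13 were highest in 713 (as were 43% of all genes that passed), all 13 differed by at least 2-fold, and none of the 11 at a mean FPKM of 10 was constant. The median difference between the highest and lowest leukemia was 2.13 on the log2 scale against 0.44 over all genes. The 3 members that did not pass were Rfx5, Rfxank and Rfxap, the subunits of the RFX complex that binds class II promoters, while Ciita, the coactivator that complex recruits, was among the 13.

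Class II promoters carry a conserved set of boxes near the gene start, among them a Y box read by NF-Y. The promoters of 3 members are printed because these genes differ between the leukemias as a group. They are the 250 bases before the gene start from RefSeq on GRCm38.p6, in the direction of the gene, with capitals marking GATTGG or its reverse complement CCAATC:
H2-Aa, chr17:34287824-34288073, minus strand: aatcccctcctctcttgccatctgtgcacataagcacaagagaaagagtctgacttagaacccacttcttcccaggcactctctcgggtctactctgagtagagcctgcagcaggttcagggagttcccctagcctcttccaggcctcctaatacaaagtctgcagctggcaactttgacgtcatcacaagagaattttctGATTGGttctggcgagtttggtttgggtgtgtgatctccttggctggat
H2-Eb1, chr17:34305617-34305866, plus strand: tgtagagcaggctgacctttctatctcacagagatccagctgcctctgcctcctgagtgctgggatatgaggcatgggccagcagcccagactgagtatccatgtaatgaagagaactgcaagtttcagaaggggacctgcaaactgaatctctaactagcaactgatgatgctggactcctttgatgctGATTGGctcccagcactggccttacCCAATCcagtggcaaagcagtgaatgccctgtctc
H2-Ob, chr17:34238655-34238904, plus strand: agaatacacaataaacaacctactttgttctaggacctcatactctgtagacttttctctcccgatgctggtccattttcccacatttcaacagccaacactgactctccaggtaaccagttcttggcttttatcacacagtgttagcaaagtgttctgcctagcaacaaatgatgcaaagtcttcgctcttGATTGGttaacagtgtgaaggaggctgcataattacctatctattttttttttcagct
GATTGG was searched on both strands. Between the gene start and the match furthest from it lie 43 bases in H2-Aa, 54 bases in H2-Eb1 and 52 bases in H2-Ob. Of the 11 members tested that had a promoter in the table, 10 held the letters, against 16.6% of 27025 gene symbols and 14.6% of 32851 promoters of this length. Among the 9 of these that passed the F test it was 8, so the letters did not tell passing members from the rest. A match describes the sequence and is not a site shown to be used.

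The invariant chain gene Cd74, whose protein escorts class II molecules to the endosome, was at FPKM 484 and 481 in leukemia 686, 4599 and 4482 in 713 and 191 and 171 in 760. Every library of 713 lay above all others and every library of 760 below them. Leukemia 713 exceeded 686 by 3.23 and 760 by 4.65 on the log2 scale (SE 0.08, adjusted p = 6e-06, limma). H2-Aa, the alpha chain of I-A, was at 52.8 and 51.7 in leukemia 686, 248 and 242 in 713 and 10.6 and 10.9 in 760. H2-Eb1, the beta chain of I-E, was at 17.1 and 16.9 in leukemia 686, 72.6 and 81.4 in 713 and 3.39 and 3.53 in 760. Both kept the order 713, 686, 760 with no overlap. H2-DMb2, part of the peptide exchange factor, was at 13.3 and 12.7 in leukemia 686, 206 and 196 in 713 and 25.8 and 20.4 in 760, so here 760 was above 686. As a reference, Cd74 was at 3.23, 1.58 and 18.7 in the dHet proB libraries and 3954 and 3282 in the wt proB libraries. With the spread estimated from all 11 libraries 13 members passed, and 12 to 14 passed when single libraries were left out.

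Other cells of a lymph node also carry class II. The FPKM of 15 mature B cell markers, 13 of them tested, summed to 587 and 547 in 686, 1141 and 1145 in 713 and 518 and 555 in 760, and those of 12 dendritic cell markers, 4 of them tested, to 62.1 and 56.2 in 686, 77.7 and 74.3 in 713 and 11.001 and 11.96 in 760, of which Flt3 made up most, at 58.9 and 52.9 in leukemia 686, 69.6 and 66.96 in 713 and 9.53 and 10.04 in 760. Of the 4 dendritic markers tested, 3 passed the F test and all 3 were highest in 713. Cd209a was at 0.0824 and 0.0801 in leukemia 686, 4.24 and 3.4 in 713 and 0 and 0.104 in 760. Siglech was at 0.425 and 0.415 in leukemia 686, 1.59 and 1.65 in 713 and 0.0578 and 0.015 in 760. Both reached an FPKM of 1 in 713 alone, so the filter took them in through 713. The dendritic marker Clec9a was at 0 in all 6 libraries. The sum of 17 macrophage and monocyte markers was 272 and 269 in 686, 298 and 319 in 713 and 40.6 and 41.4 in 760, with Vsig4 at 0. The mature B list holds the class II gene H2-DMb2, without which the other 14 summed to 574 and 534 in 686, 934 and 949 in 713 and 492 and 535 in 760. This sum was highest in 713, as class II was, and so were the dendritic and the macrophage sums. The macrophage sum was highest there through Fcgr3, at 131 and 142 in 713 against 16.8 and 16.4 in 686. Lyz2, the largest member in 686, was at 204 and 204 there against 107 and 117 in 713. Among the 11 macrophage and monocyte markers that passed the F test, 8 were highest in 713 and 3 in 686. The part of such cells in the class II result was not tested. In bulk RNA, fewer cells of a type and less RNA per cell cannot be told apart.

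Surface receptors of B cells followed a similar order. Of 30 tested, 27 passed (90%, against 47.7% of all genes), and 23 of these were highest in 713 (as were 43% of all genes that passed). By at least 2-fold 21 differed, as did 16.1% of all genes tested. Cd44, the hyaluronan receptor, was at 2.45 and 2.09 in leukemia 686, 36.5 and 34.2 in 713 and 0.0746 and 0.109 in 760. Fcgr2b, the inhibitory Fc receptor, was at 11.1 and 9.89 in leukemia 686, 92.8 and 99.6 in 713 and 2.504 and 2.18 in 760. Fcrla, an intracellular Fc receptor-like protein of B cells, was at 1.66 and 0.684 in leukemia 686, 29.99 and 29.5 in 713 and 0.264 and 0.342 in 760. For Cd44 and Fcgr2b the order was 713, 686, 760 with no overlap, whereas for Fcrla 686 and 760 did not differ at the threshold (adjusted p = 0.0817). Il2ra, the alpha chain of the IL-2 receptor, went the other way and was the single member highest in 686, at 39.9 and 37.1 in leukemia 686, 6.42 and 6.26 in 713 and 31.4 and 38.3 in 760. Libraries of 713 were below all others, but this call was lost with the spread of all 11 libraries (adjusted p = 0.118). The 3 members that did not pass, Cd53, Spn and Ptprc, were constant.

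Homing receptors and integrins, which steer lymphocytes into and out of tissues, gave 27 of 30 members past the F test. Of these, 21 were highest in 713 and 17 lowest in 760 (as were 43% and 35% of all genes that passed). S1pr1, the receptor that draws lymphocytes out of lymphoid tissue, was at 2.12 and 2.14 in leukemia 686, 29.2 and 31.3 in 713 and 1.31 and 1.25 in 760. The integrin chain Itgb7 was at 3.27 and 2.83 in leukemia 686, 23.9 and 22.5 in 713 and 1.31 and 1.05 in 760. Both were high in 713 with no overlap. Cxcr5, which guides B cells to follicles, was instead highest in 760, at 4.37 and 3.51 in leukemia 686, 0.984 and 1.16 in 713 and 17.8 and 20.6 in 760, with 713 lowest. Among NF-kB pathway members and targets 13 of 18 passed (72.2%, against 47.7% of all genes), and 11 of these were highest in 713 (as were 43% of all genes that passed). The lymphotoxin gene Ltb was at 250.5 and 261 in leukemia 686, 509 and 483 in 713 and 112 and 74.7 in 760, the order being 713, 686, 760, but its call was lost with the spread of all 11 libraries (adjusted p = 0.222). Cd40, a receptor for T cell help, was at 0.8396 and 0.572 in leukemia 686, 5.11 and 4.37 in 713 and 0.152 and 0.337 in 760. It kept its call with the spread of all 11 libraries. However, Cd40 reached an FPKM of 1 in 713 alone, so the filter took it in through 713 and its place as highest there was given. Without a library of 713 the filter drops it.

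Interferon-stimulated genes, which interferons switch on, separated 686 from the others. Of 30 tested, 29 passed (96.7%), 25 of those were lowest in 686 (as were 22.7% of all genes that passed), and 21 were highest in 713 and 8 in 760. The exception that did not pass was Irgm1. On the log2 scale the list median of 686 minus 713 was -0.87 and that of 686 minus 760 was -0.76. With single libraries left out 24 to 28 members passed, and with the spread of all 11 libraries 16.

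Interferon-stimulated promoters often hold a response element built on repeated GAAA. The promoters of a pair of guanylate-binding proteins are printed for this reason, from the same table and build and of the same length, with capitals marking GAAA, any 2 bases and GAAA again, or the reverse complement, overlapping matches joined:
Gbp2, chr3:142620413-142620662, plus strand: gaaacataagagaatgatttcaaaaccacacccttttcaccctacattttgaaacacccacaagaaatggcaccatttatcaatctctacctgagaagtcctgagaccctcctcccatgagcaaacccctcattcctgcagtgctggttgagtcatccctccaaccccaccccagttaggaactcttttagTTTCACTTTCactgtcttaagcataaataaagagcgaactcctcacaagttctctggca
Gbp3, chr3:142559794-142560043, plus strand: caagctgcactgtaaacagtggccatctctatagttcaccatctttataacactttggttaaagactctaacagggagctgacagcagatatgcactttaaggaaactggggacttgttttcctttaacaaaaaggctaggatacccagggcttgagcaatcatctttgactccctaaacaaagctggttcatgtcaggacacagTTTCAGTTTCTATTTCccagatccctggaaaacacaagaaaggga
The pattern was searched on both strands. Of 23 members tested with a promoter in the table, 13 held it, against 3.46% of 27025 symbols and 2.98% of 32851 promoters. Among the 22 of these that passed the F test it was 12.

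Gbp3 itself was at FPKM 9.72 and 7.29 in leukemia 686, 75.7 and 80.3 in 713 and 17.8 and 21.6 in 760, with no overlap between leukemias and 686 lowest. Ifi27l2a, a small interferon-induced protein, was at 11.4 and 12.5 in leukemia 686, 203 and 207 in 713 and 57.4 and 58.6 in 760. It was lower in 686 than in 713 by 3.99 and than in 760 by 2.19 (SE 0.08, F test adjusted p = 1.47e-05, limma). Usp18, the protease that removes ISG15 and restrains interferon signalling, was at 3.12 and 2.56 in leukemia 686, 32.2 and 32.5 in 713 and 5.82 and 6.39 in 760. Bst2 (tetherin) did not follow, being lowest in 713 at 68.6 and 68.7 in leukemia 686, 56.1 and 55.8 in 713 and 101 and 99.3 in 760, with 760 highest. Genes of MHC class I presentation shared the low level in 686: 17 of 21 passed and 16 of those were lowest in 686 (as were 22.7% of all genes that passed). The class I-like gene H2-M3 was at 20.1 and 18.9 in leukemia 686, 58.4 and 55.6 in 713 and 37.2 and 32.4 in 760, and Psmb9, an immunoproteasome subunit, was at 99.5 and 91.4 in leukemia 686, 168 and 159 in 713 and 176 and 161 in 760. B2m, the light chain of class I, was at 1169 and 1137 in leukemia 686, 1641 and 1671 in 713 and 1758 and 2028 in 760, lower in 686 but within 2-fold.

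Cholesterol synthesis set 760 apart. Of 20 members tested, 19 passed (95%), 18 of these were highest in 760 (as were 31.1% of all genes that passed), and 15 differed by at least 2-fold. The list median was higher in 760 than in 686 (686 minus 760, -1.07) and than in 713 (713 minus 760, -1.16). Fdps, which makes farnesyl diphosphate, was at FPKM 57.8 and 59.5 in leukemia 686, 38.7 and 39.2 in 713 and 216 and 193 in 760. Idi1, the isomerase that feeds it, was at 5.501 and 5.66 in leukemia 686, 3.06 and 3.03 in 713 and 12.1 and 13.6 in 760. Both had the order 760, 686, 713 with no overlap, and Fdps was higher in 760 than in 713 by 2.36 (SE 0.08, adjusted p = 2.2e-05, limma). The genes of the SREBP factors that drive this pathway did not share the pattern. Srebf2 was at 53.8 and 46.2 in leukemia 686, 76.4 and 67.1 in 713 and 69.1 and 70.7 in 760 and Srebf1 at 27.4 and 24.1 in leukemia 686, 33.1 and 25.995 in 713 and 32.1 and 30.9 in 760, both within 2-fold, and Srebf1 was the member that missed the F test (adjusted p = 0.25). With the spread of all 11 libraries 18 members still passed.

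B lineage genes other than the defining factors varied in both directions. Of 24 in the identity list, 18 passed (75%, against 47.7% of all genes). Of these, 11 were highest in 713 and 7 in 760, as were 43% and 31.1% of all genes that passed. Of 22 at a mean FPKM of 10, 11 were constant (50%, against 76.2%). Dntt, the terminal transferase that adds bases at V(D)J junctions, was at 62.7 and 58.2 in leukemia 686, 20.8 and 24.3 in 713 and 470.2 and 436 in 760. Leukemia 760 exceeded 713 by 4.27 (SE 0.10, adjusted p = 9.43e-06, limma), with 686 between. The reference libraries covered the same range, at 95.5, 26.6 and 27.8 in the dHet proB libraries and 445 and 454 in the wt proB libraries. Irf8, a factor of B and myeloid cells, was high in 713 alone, at 14.4 and 15.1 in leukemia 686, 221 and 229 in 713 and 20.8 and 23.2 in 760. Ikzf3 (Aiolos) was at 0.8096 and 0.617 in leukemia 686, 11.1 and 11.6 in 713 and 0.201 and 0.379 in 760, again high in 713. It reached an FPKM of 1 in 713 alone, so the filter took it in through 713.

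Pre-B cell receptor genes were led by the surrogate light chains, which pair with the heavy chain before light chains are made. Vpreb2 was at 383 and 351 in leukemia 686, 144 and 142 in 713 and 765 and 659 in 760, the order being 760, 686, 713. Its near-identical copy Vpreb1, with which it may share reads, was at 1509 and 1463 in leukemia 686, 1495 and 1536 in 713 and 2217 and 1956 in 760 and stayed within 2-fold. Igll1 was at 2107 and 2197 in leukemia 686, 1907 and 1889 in 713 and 3728 and 3103 in 760 and was not constant, but its F test call was lost with the spread of all 11 libraries (adjusted p = 0.0588). Cd79a, the signalling chain of the receptor, was at 1249 and 1247 in leukemia 686, 2354 and 2375 in 713 and 1338 and 1274 in 760. Of the 20 genes of this list 16 passed (80%, against 47.7% of all genes). Of these, 10 were highest in 713 and 6 in 760, as were 43% and 31.1% of all genes that passed. With the spread of all 11 libraries 9 passed.

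Cytokine receptors that carry growth signals into B cell precursors differed as well. Flt3 was low in 760 (values above), by 2.68 under 713. Kit, the stem cell factor receptor, was low in 713, at 22.1 and 17.5 in leukemia 686, 6.8998 and 5.79 in 713 and 24.01 and 25.1 in 760. Il7r, the receptor chain for the main growth factor of these cells, was at 71.2 and 65.5 in leukemia 686, 95.5 and 97.5 in 713 and 88.3 and 102 in 760 and constant. Jak1, a kinase used by that receptor, was at 119 and 95.6 in leukemia 686, 184 and 166 in 713 and 79.6 and 79.8 in 760, so its order was 713, 686, 760. Ccnd2, a D-type cyclin, was high in 760, at 54.3 and 52.03 in leukemia 686, 48.4 and 46.1 in 713 and 144 and 161 in 760, and Socs3, a feedback inhibitor, was high in 713, at 9.03 and 6.56 in leukemia 686, 33.3 and 27.8 in 713 and 2.97 and 3.53 in 760. Neither kept its call with the spread of all 11 libraries (adjusted p = 0.244 for Ccnd2 and 0.16 for Socs3).

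Myc, the growth-promoting transcription factor, was at 445 and 417 in leukemia 686, 209 and 203 in 713 and 367 and 409.8 in 760. Both libraries of 713 were below all others, by 1.06 under 686 (adjusted p = 0.000443, limma). The call was lost with the spread of all 11 libraries (adjusted p = 0.745), among which dHet proB Myc alone covered a wide range, at 9.39, 42.3 and 290.1 in the dHet proB libraries and 82.5 and 68.4 in the wt proB libraries. Its relative Mycn took the opposite order, at 4.52 and 3.79 in leukemia 686, 35.2 and 32.5 in 713 and 7.28 and 7.65 in 760, high in 713 with no overlap. Max, the partner both need, was constant at 153 and 148 in leukemia 686, 161 and 155 in 713 and 153 and 135 in 760.

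Many genes of growth and DNA synthesis were lowest in 713 and highest in 686, mostly by small amounts. In the DNA replication list 26 of 30 passed, all 26 were lowest in 713 (as were 42.2% of all genes that passed), 20 were highest in 686, and none differed by 2-fold. Tipin, a replication fork protein, was at 277 and 260.1 in leukemia 686, 151 and 151 in 713 and 226 and 207 in 760, and Cdc6, which loads the replicative helicase, at 49.6 and 44.4 in leukemia 686, 26.8 and 24.6 in 713 and 36.7 and 35.4 in 760. Leukemia 713 was below the others without overlap in both. Purine and pyrimidine synthesis gave 17 of 20 past the test, 16 of them lowest in 713. Umps, which completes uridine monophosphate, was at 177 and 164 in leukemia 686, 70.8 and 65.1 in 713 and 160.1 and 135 in 760. For ribosome biogenesis it was 17 of 25, 14 of them lowest in 713 and 16 highest in 686 (as were 26% of all genes that passed), although 23 of 24 at a mean FPKM of 10 stayed within 2-fold, and the nucleolar chaperone Npm1 was at 1446 and 1360.2 in leukemia 686, 818 and 807 in 713 and 1155 and 1104 in 760. For glycolysis it was 17 of 19, 12 of them lowest in 713 and 12 highest in 686. The glycolysis median was close in 713 and 760 (713 minus 760, -0.07) and higher in 686, by 0.44 over 713 and 0.31 over 760. These small shifts rest on the spread between the 2 libraries of a leukemia: with the spread of all 11 libraries 0, 3, 2 and 4 members passed in these 4 lists, and leaving out a library of 713 left as few as 10, 7, 7 and 10. Glycolysis also fell to 10 without library 1 of 686.

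Regulators of the cell cycle showed larger single differences. Cdkn1a, which encodes the p21 inhibitor and is a p53 target, was at 1.11 and 1.14 in leukemia 686, 22.1 and 23.4 in 713 and 2.26 and 2.58 in 760, high in 713. Cdkn2a, which encodes p16 and p19ARF, was low in 760, at 8.204 and 7.86 in leukemia 686, 6.61 and 7.21 in 713 and 0.458 and 0.399 in 760, where both libraries lay below all others by 2.47 against 713. Trp53 itself was at 143 and 133 in leukemia 686, 98.5 and 94.9 in 713 and 129 and 136 in 760 and constant. Of the p53 list 13 of 16 passed, in mixed order, with 5 highest in 686, 6 in 713 and 2 in 760. Of all genes that passed, 26%, 43% and 31.1% were highest in these leukemias. In the RAS-MAPK list 10 of 26 passed (38.5%, below the 47.7% of all genes), but 8 of those were highest in 713. With the spread of all 11 libraries 4 passed in each of these lists, and without library 1 and 2 of 713 it was 8 and 7 (p53) and 7 and 6 (RAS-MAPK). Etv4, an ETS factor induced by this pathway, was at 2.103 and 1.75 in leukemia 686, 24.3 and 22.4 in 713 and 0.461 and 0.402 in 760, and its relative Etv5 at 19.7 and 17.3 in leukemia 686, 46.4 and 44.6 in 713 and 12.8 and 14.1 in 760. Dusp6, the ERK phosphatase of the same feedback set, was at 56.03 and 49.2 in leukemia 686, 132 and 133 in 713 and 49.8 and 53.7 in 760, a call lost with the spread of all 11 libraries (adjusted p = 0.0777). Nras, a RAS gene, was constant at 113 and 102 in leukemia 686, 106 and 92.3 in 713 and 115 and 84.6 in 760.

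Some genes usually known from T and NK cells were high in 760. Lat, the adaptor of T cell receptor signalling, was at 20.7 and 25.96 in leukemia 686, 29.5 and 29.7 in 713 and 200.3 and 185 in 760. Thy1, a surface protein of T cells, was at 5.301 and 5.17 in leukemia 686, 4.99 and 4.8998 in 713 and 37.8 and 36.7 in 760, and Cd247, the zeta chain of the receptor, at 1.77 and 1.55 in leukemia 686, 2.18 and 2.08 in 713 and 19.996 and 14.8 in 760. In each, 760 lay above the other leukemias with no overlap. Nkg7, a granule protein of NK and cytotoxic T cells, was at 38.5 and 37.1 in leukemia 686, 21.1 and 22.7 in 713 and 328 and 265 in 760. The T lineage list as a whole had no common order, with 18 of 21 past the test, 8 highest in 760, 6 in 686 and 4 in 713. Of all genes that passed, 31.1% were highest in 760, 26% in 686 and 43% in 713. The defining T cell gene Cd3e was lowest in 760, at 4.33 and 5.41 in leukemia 686, 4.79 and 4.03 in 713 and 1.18 and 1.46 in 760, unlike those genes. The summed T cell markers given above were level across leukemias only through Ubash3a, a regulator of T cell receptor signalling, at 4.95 and 4.65 in 686, 4.64 and 3.41 in 713 and 21.6 and 21.9 in 760. Without it the other 14 summed to 27.2 and 27.1 in 686, 28.7 and 28.98 in 713 and 12.02 and 11.3 in 760, lowest in 760. All 10 T cell markers tested passed, 8 of them lowest in 760 (as were 35% of all genes that passed). Of the summed FPKM of 10 NK markers, 52.02 and 51.04 in 686, 56.1 and 60.4 in 713 and 333 and 271 in 760, Nkg7 made up most in 760, while the NK receptor gene Klrd1 was lowest there, at 5.68 and 5.17 in leukemia 686, 14.3 and 13.996 in 713 and 1.42 and 2.05 in 760.

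Genes that most set each leukemia apart were taken as the 8 largest excesses and 5 largest deficits per leukemia. Only genes that passed the F test, with both libraries of that leukemia beyond all others, could be taken. Their separation was thus given, and their p-values belong to genes picked as extremes of the same values. In 713 they included Cd36, a fatty acid and lipoprotein receptor, at 0.546 and 0.441 in leukemia 686, 141 and 131 in 713 and 0.123 and 0.175 in 760, which exceeded 760 by 6.90 (SE 0.10, adjusted p = 5.58e-06, limma). Cd2, an adhesion molecule of lymphocytes, was at 6.29 and 6.88 in leukemia 686, 404 and 401 in 713 and 1.43 and 1.86 in 760. Ly6a (Sca-1) was at 17.3 and 16.6 in leukemia 686, 342 and 358 in 713 and 12.9 and 14.9 in 760. Hs3st2, a heparan sulfate sulfotransferase, Cdhr2, a protocadherin of epithelia, and Lrrc32, which holds latent TGF-beta at the cell surface, were at FPKM 28.1 or more in both libraries of 713 and at most 0.527 in the other 4. For each of these 6 the libraries of 713 lay above all others, as the rule required.

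Leukemia 713 was also low in genes that the others expressed strongly. Trf (transferrin) was at 279 and 253 in leukemia 686, 9.94 and 9.45 in 713 and 244 and 199 in 760. Ddc, which makes dopamine and serotonin, was at 44.5 and 39.8 in leukemia 686, 0.417 and 0.425 in 713 and 64.2 and 60.4 in 760. Afap1l1, an actin-associated adaptor, was at 45.1 and 42.2 in leukemia 686, 1.86 and 1.66 in 713 and 42.7 and 41.7 in 760, and the potassium channel subunit Kcng1 was at 18.7 and 16.4 in leukemia 686, 0.236 and 0.175 in 713 and 16.2 and 19.6 in 760. Serf1 was at 141 and 140.1 in leukemia 686, 8.09 and 5.07 in 713 and 242 and 176 in 760. In all 5 the libraries of 713 fell below the other 4, as the rule required, and apart from Ddc the other leukemias did not differ at the threshold.

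In 760 the largest excess was that of Epcam, an epithelial cell adhesion molecule, at 2.86 and 2.91 in leukemia 686, 0.2898 and 0.29997 in 713 and 71.1 and 64.1 in 760. It exceeded 686 by 4.14 and 713 by 5.73 (SE 0.10, F test adjusted p = 1.19e-05, limma). Fcrl6, an Fc receptor-like protein, was at 0.763 and 0.693 in leukemia 686, 0.923 and 0.675 in 713 and 21.2 and 27.7 in 760. Hnrnpll, a splicing regulator of lymphocytes, was at 0.453 and 1.54 in leukemia 686, 0.134 and 0.22004 in 713 and 24.3 and 23.3 in 760, and Tfpi, an inhibitor of the tissue factor pathway of clotting, at 0.119 and 0.01201 in leukemia 686, 0.0301 and 0.0673 in 713 and 10.4 and 11.1 in 760. Krtcap3, Gpr25 (an orphan receptor), Vill (a villin-like actin protein) and Ica1 completed the group and were high in both libraries of 760 alone. Among the deficits, Xlr4a of the X-linked Xlr family, whose near-identical copies may share its reads, was at 38.2 and 35.9 in leukemia 686, 40.99 and 37.3 in 713 and 0.0991 and 0.102 in 760. Lrrc4c was at 7.45 and 8.25 in leukemia 686, 11.2 and 11.97 in 713 and 0.107 and 0.0406 in 760.

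A pair of the deficits of 760 lie on the Y chromosome. Eif2s3y, a translation initiation subunit, was at 32.4 and 29.4 in leukemia 686, 43.02 and 42.3 in 713 and 0 and 0 in 760, and the helicase gene Ddx3y at 18.4 and 15.7 in leukemia 686, 15.9 and 16.2 in 713 and 0 and 0.00739 in 760. Xist, the RNA that silences an X chromosome, was at 0.00211 and 0 in leukemia 686, 0.00642 and 0.00267 in 713 and 4.34 and 8.002 in 760, above 1 in 760 alone, though its call was lost with the spread of all 11 libraries (adjusted p = 0.123). The labels give no sex, and sex and leukemia 760 cannot be told apart, so any gene that is set by sex can appear as specific to 760.

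In 686 Rdx (radixin), which links actin to the membrane, was at 33.6 and 28.97 in leukemia 686, 0.811 and 0.497 in 713 and 0.0577 and 0.166 in 760. Fam92a was at 25.9 and 27.2 in leukemia 686, 0.243 and 0.202 in 713 and 0 and 0.0595 in 760, and Mgmt, which repairs alkylated guanine, was at 17.4 and 19.2 in leukemia 686, 0.521 and 0.887 in 713 and 0 and 0 in 760. The proB libraries also held Rdx, at 87.5, 115 and 73.004 in the dHet proB libraries and 64.2 and 70.8 in the wt proB libraries, and Fam92a, at 18.7, 23.8 and 15.1 in the dHet proB libraries and 18.95 and 15.01 in the wt proB libraries, so here 713 and 760 were the low ones. Sln (sarcolipin), a regulator of the muscle calcium pump, was at 10.9 and 12.8 in leukemia 686, 0 and 0 in 713 and 0.115 and 0.112 in 760. Low in 686 alone were Map7, a microtubule-binding protein, at 0.993 and 0.738 in leukemia 686, 32.2 and 30.3 in 713 and 20.3 and 23.2 in 760, and Ccdc90b at 5.59 and 5.18 in leukemia 686, 34.3 and 37.8 in 713 and 36.9 and 32.6 in 760. Pcdh11x, a protocadherin, was at 0.00302 and 0 in leukemia 686, 7.47 and 7.91 in 713 and 22.01 and 30.6 in 760, so it differed among all 3.

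**Figure D3:**
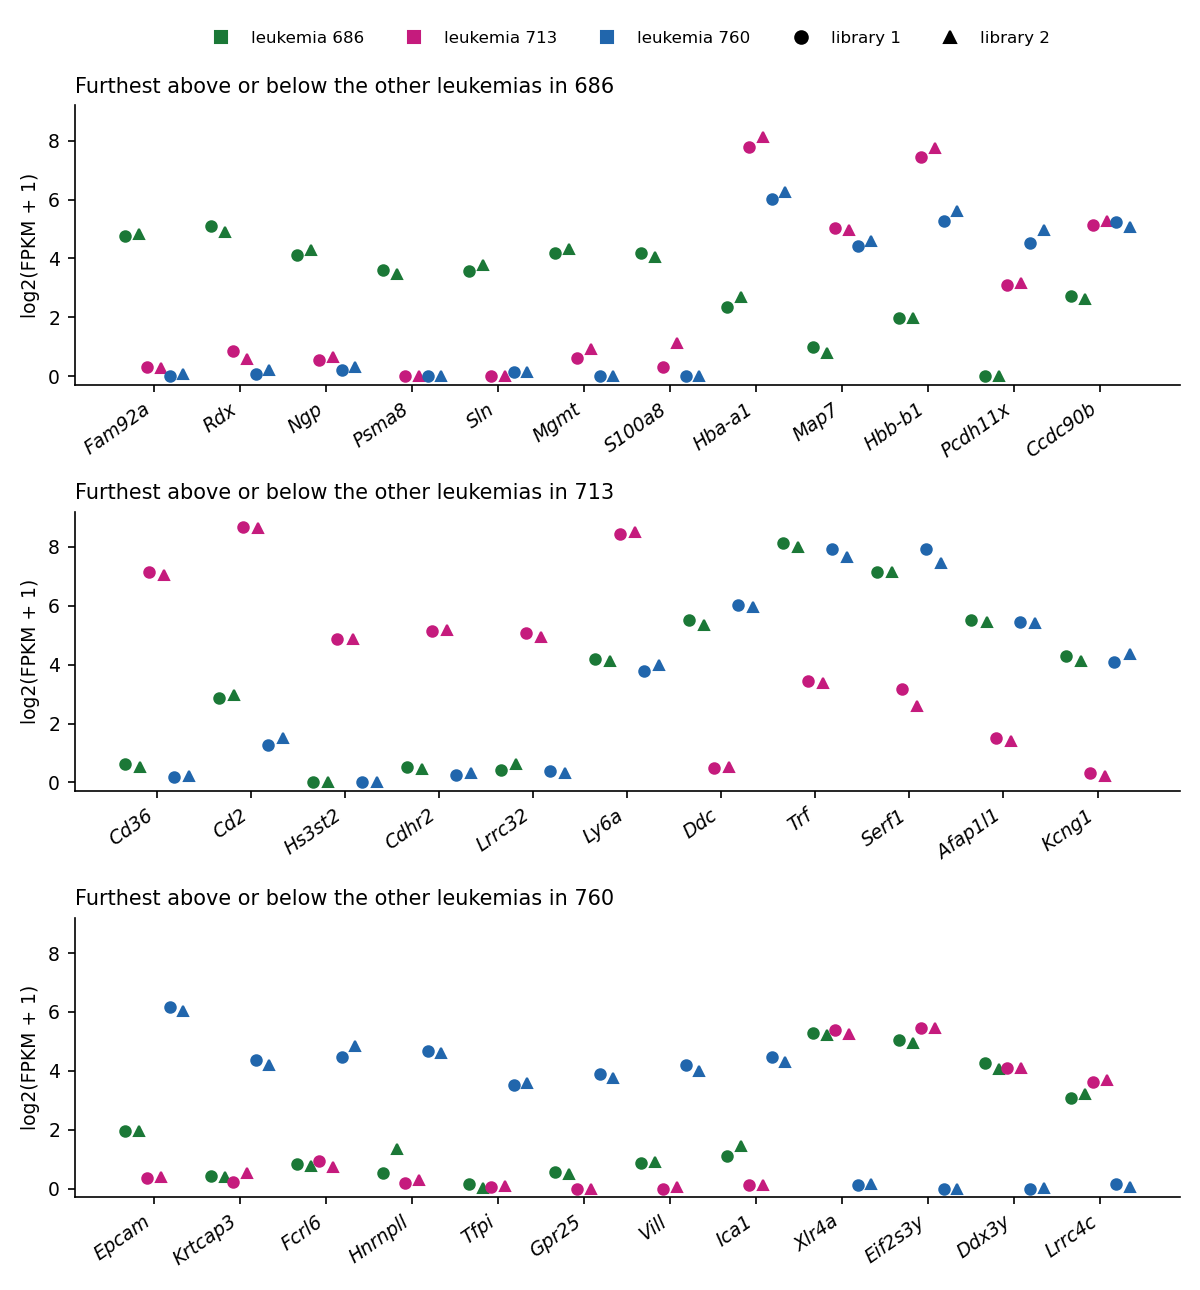
Genes with the largest excess or deficit in each leukemia, as log2(FPKM + 1) in each of the 6 libraries (colour, leukemia; circle and triangle, libraries 1 and 2; short RNA genes left out). In every gene shown the libraries of the named leukemia lie beyond the other 4, which the rule of choice required. Pairs of libraries nearly coincide, as for Cd36 and Epcam.

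Part of the genes that mark 686 are markers of other blood cells. The neutrophil granule gene Ngp was at 16.3 and 18.3 in leukemia 686, 0.4502 and 0.555 in 713 and 0.171 and 0.245 in 760, and the neutrophil alarmin S100a8 was at 17.2 and 15.4 in leukemia 686, 0.235 and 1.17 in 713 and 0 and 0 in 760. All 7 neutrophil markers tested, of 14 listed, passed and were highest in 686. Of these, S100a9, Ngp, Camp, Ltf and Retnlg reached an FPKM of 1 in 686 alone. The filter took them in through 686, so their place as highest there was given. Without a library of 686 it drops them, so leaving libraries out cannot test them. The 14 summed to 54.4 and 53.3 in 686, 3.07 and 3.98 in 713 and 1.31 and 1.57 in 760, against 419 to 454 in the wt proB libraries. Hemoglobin genes ran the other way. Hba-a1 was at 4.07 and 5.48 in leukemia 686, 218 and 277 in 713 and 63.9 and 75.9 in 760, and Hbb-b1 at 2.897 and 2.92 in leukemia 686, 173 and 214 in 713 and 37.7 and 47.6 in 760, each with 686 lowest and 713 highest. Both have near-identical copies. The 14 red cell and megakaryocyte markers, 4 of them tested, summed to 9.19 and 11.6 in 686, 412 and 517 in 713 and 109 and 135 in 760. All 11 macrophage and monocyte markers tested passed. Of these, 8 were highest in 713 and 10 lowest in 760, as were 43% and 35% of all genes that passed, and Marco reached an FPKM of 1 in 713 alone. Fcgr3 and Lyz2, on this list, were both lowest in 760 but peaked in different leukemias. Fcgr3 was at 16.8 and 16.4 in leukemia 686, 131 and 142 in 713 and 3.07 and 2.497 in 760 and Lyz2 at 204 and 204 in leukemia 686, 107 and 117 in 713 and 26.1 and 26.4 in 760. Stromal markers summed to 1.503 and 1.25 in 686, 25.3 and 23.6 in 713 and 0.398 and 0.405 in 760. Fn1 (fibronectin) made up most of this in 713, at 0.567 and 0.438 in leukemia 686, 20.5 and 18.7 in 713 and 0 and 0.0207 in 760. Cxcl13, the other stromal marker tested, was at 0.419 and 0.397 in leukemia 686, 2.98 and 2.26 in 713 and 0.0341 and 0.035 in 760. Both passed and were highest in 713, the leukemia through which the filter took them in. The other 13 stayed below an FPKM of 1 in all 6 libraries, with Lum and Ccl21a at 0. What part such cells have in the other differences was not tested.

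The same rule took 4 genes for short RNAs, which can share reads with the transcripts around them, and the way they were counted is not given in the sources used here. Snord104 was at 77.3 and 119 in leukemia 686, 0 and 0 in 713 and 0 and 0 in 760, Mir5107 at 0 and 0 in leukemia 686, 48.1 and 60.1 in 713 and 0 and 0 in 760, Mir1931 at 0 and 0 in leukemia 686, 12.8 and 60.6 in 713 and 0 and 0 in 760 and Rpph1 at 58.3 and 51.4 in leukemia 686, 62.4 and 63.4 in 713 and 7.84 and 4.47 in 760. No fold is drawn against a level listed at 0.

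Among other single regulators, Id2 and Id3, which block E proteins such as TCF3, were both high in 713. Id2 was at 8.02 and 6.796 in leukemia 686, 142 and 104 in 713 and 19.6 and 15.6 in 760 and Id3 at 31.4 and 32.8 in leukemia 686, 164 and 169 in 713 and 15.1 and 16.2 in 760. Lef1, an effector of Wnt signalling in early B cells, was at 21.2 and 20.3 in leukemia 686, 31.4 and 30.6 in 713 and 85.2 and 81.4 in 760, highest in 760 and far below the proB libraries, at 546, 515 and 382 in the dHet proB libraries and 302 and 421 in the wt proB libraries. Ddit4 (REDD1), a stress-induced brake on mTOR, was at 40.6 and 46.7 in leukemia 686, 533 and 519.6 in 713 and 173 and 154 in 760, with the order 713, 760, 686. Cdh17 (LI-cadherin) was at 109 and 95.4 in leukemia 686, 309 and 293 in 713 and 27.96 and 27.8 in 760, with the order 713, 686, 760, and it was low in all proB libraries, at 1.34, 0.773 and 2.09 in the dHet proB libraries and 0.579 and 0.183 in the wt proB libraries. Jchain, the joining chain of IgM and IgA polymers, was at 242 and 233 in leukemia 686, 28.1 and 28.004 in 713 and 205 and 201 in 760, low in 713. Ifitm1, an interferon-induced membrane protein, was at 141 and 160.1 in leukemia 686, 50.5 and 49.6 in 713 and 1120.1 and 979 in 760, highest in 760 and lowest in 713. In none of these genes did libraries of different leukemias overlap.

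Neighbouring genes moved together in some regions, which was noticed in these values and is described without a test. Genes were placed by their RefSeq order, for 7488 genes with a mean FPKM of 5 or more, and DNA copy number was not measured. On chromosome 15 the median gene was higher in 713 than the mean of the other leukemias by 0.45 on the log2 scale (315 genes; 0.46 and 0.43 for its libraries taken singly). On the other 19 chromosomes this median lay between -0.13 and 0.04. Leukemia 713 was higher than both others for 156 of the 315 genes (49.5%), against 13.7% of all 7488 genes and 12.1% of those elsewhere. Against the mean of the proB libraries the chromosome 15 median was 0.54 in 713, 0.06 in 686 and 0.10 in 760. The shift ran along the whole chromosome, with medians of 0.41, 0.40, 0.39, 0.46 and 0.52 in 5 successive sets of 63 genes each. Myc lies on this chromosome and was lower in 713 (values above).

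**Figure D4:**
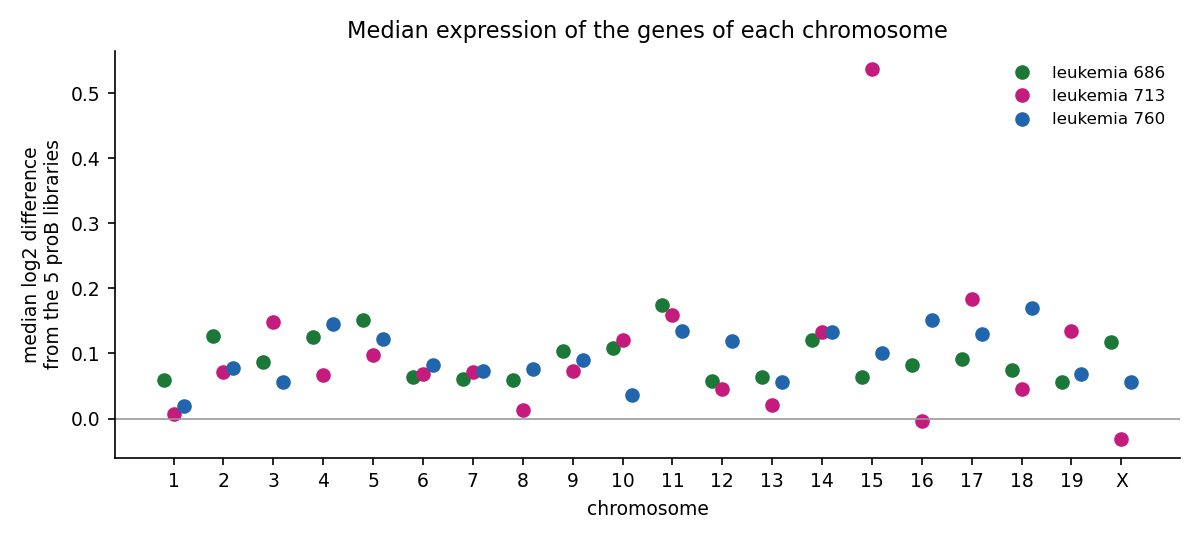
Median over genes of each chromosome of the log2 difference between each leukemia and the mean of the 5 proB libraries (points, 1 per leukemia). Chromosome 15 in 713 stands at 0.54, while the other 19 chromosomes lie between -0.03 and 0.18 in 713.

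On chromosome 1 leukemia 760 changed level at a pair of adjacent stretches. In the stretch from Pecr to Trip12, called A, the median of 33 genes was 0.68 above the other leukemias (quartiles 0.43 and 0.93), and 31 of the 33 lay above both. At the threshold 20 of them (60.6%) were higher than in both others, against 4.59% of all 7488 genes. In the next stretch, B, from Sp110 to Ppip5k2, the median of 44 genes was -0.89 (quartiles -1.08 and -0.69), 42 lay below both, and 33 (75%) were lower than in both others, against 5.65% of all genes. The remaining 320 genes of the chromosome had a median of -0.01. Against the proB mean the medians in 760 were 0.70 in A and -0.80 in B. The boundaries were set from the values themselves.

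These stretches hold several genes that the lists name as varying. In A lie Nhej1, an end-joining factor, at 7.56 and 8.31 in leukemia 686, 3.29 and 5.67 in 713 and 12.8 and 15.99 in 760, Rpl37a, a ribosomal protein, at 256 and 279.9 in leukemia 686, 247 and 249 in 713 and 413 and 440.1 in 760, and Acsl3, a fatty acyl-CoA ligase, at 5.69 and 5.898 in leukemia 686, 4.24 and 4.69 in 713 and 15.9 and 17.5 in 760. All were highest in 760. In B lie Ncl (nucleolin) at 305 and 272 in leukemia 686, 193 and 185 in 713 and 98.3 and 111 in 760, Inpp5d, which encodes the phosphatase SHIP-1 that restrains B cell receptor signalling, at 139 and 115 in leukemia 686, 168 and 151 in 713 and 47.7 and 56.1 in 760, Psmd1, a proteasome subunit, at 111 and 106 in leukemia 686, 92.2 and 92.9 in 713 and 65.001 and 62.99 in 760, and Eif4e2, a cap-binding protein, at 57.04 and 60.4 in leukemia 686, 50.9 and 52.9 in 713 and 26.6 and 24.6 in 760. All were lowest in 760 with no overlap. Runs of at least 15 genes whose running median passed 0.3 in either direction occurred on chromosomes 1, 15 and 17 alone. On chromosome 17 they lay in the MHC region, with 22 genes from Ring1 to Ppt2 at a median of 0.62 in 713 and 19 genes from Vps52 to H2-Eb1 at a median of -0.66 in 686.

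**Figure D5:**
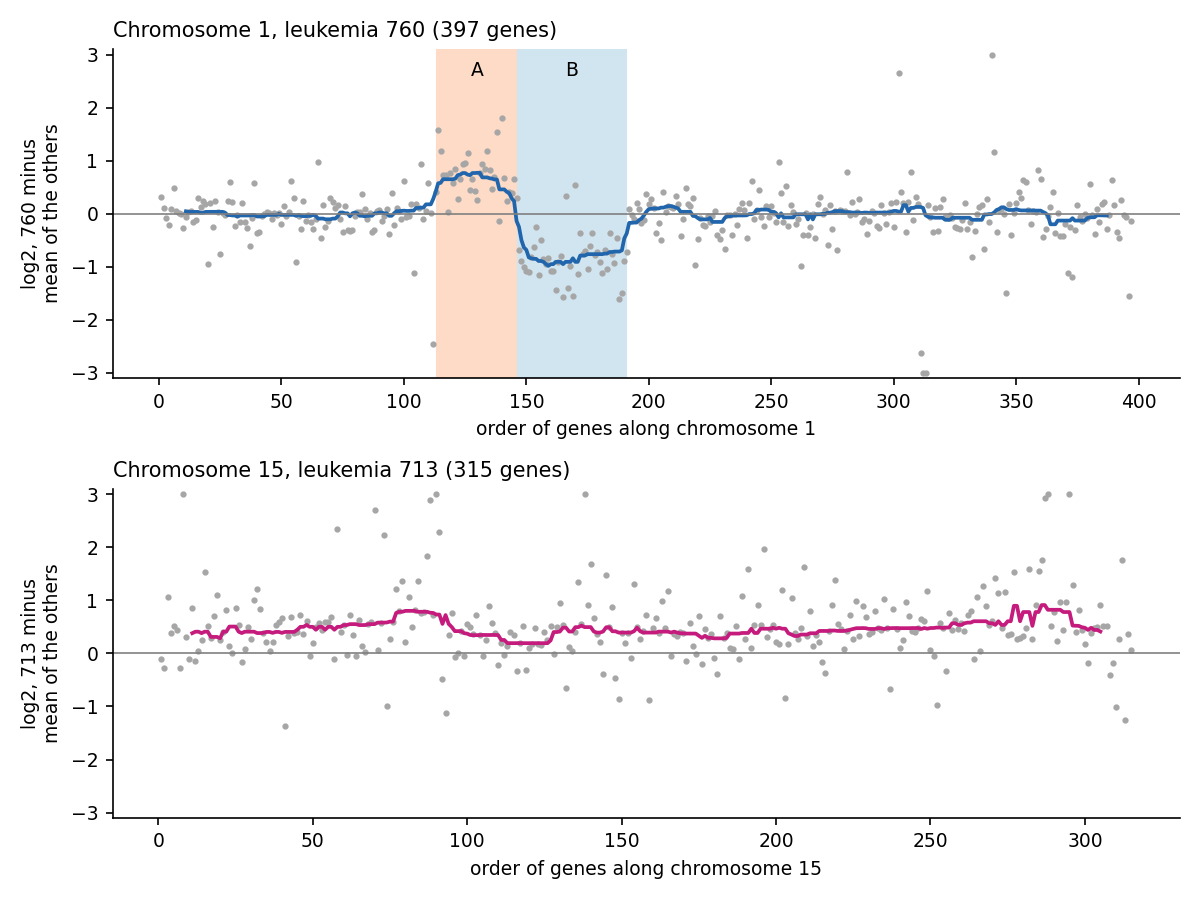
Log2 difference of each gene (grey points, limited to plus or minus 3) from the mean of the other leukemias, in gene order, with the running median of 21 genes (line): leukemia 760 on chromosome 1 (397 genes, stretches A and B shaded) and leukemia 713 on chromosome 15 (315 genes). In 760 the line rises in A (median 0.68) and falls in B (-0.89), and in 713 it stays above 0 over all of chromosome 15.

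The spread between the libraries of 1 leukemia, used as the yardstick, was itself uneven. Within 1.5-fold lay 92.7% of genes in 686, 95.5% in 713 and 97.9% in 760. At least 2-fold lower in library 1 were 412 genes in 686, 181 in 713 and 29 in 760, and 20, 17 and 9 were higher. Klf2, a zinc finger factor of quiescent lymphocytes, was at 1.1996 and 38.9 in leukemia 686, 33.8 and 121 in 713 and 7.27 and 10.1 in 760, and the AP-1 gene Jund at 4.51 and 38.1 in leukemia 686, 9.59 and 61.4 in 713 and 9.29 and 16.4 in 760. In both, library 1 was the lower in every leukemia. For Jund all leukemias overlapped, while for Klf2 the libraries of 686 overlapped those of 713 and of 760, which were apart. No gene passed a test of library 2 against library 1 across leukemias (limma, 0 of 10640 at an adjusted p under 0.05, 1207 or 11.3% at an unadjusted p under 0.05). With 760 left out 459 genes (4.4%) passed, 411 of them lower in library 1. What differed between these libraries is not given in the labels.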

How the data were processed

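The authors deposited 1 table per library with an FPKM for each gene, and all 11 tables list the same 24319 genes. Per the submitters' processing notes, the build was mm9, and the tools named are Cuffnorm 2.2.1, Cuffdiff, Cufflinks 2.2.1, the aligner STAR 2.5.3a, and bcl2fastq in versions 0.3.1 and 2.20.0.422. Per the labels' protocols, total RNA was isolated with the RNeasy Mini Kit. No read counts or depths were used here, so the depth behind a value is unknown, and a low or zero FPKM carries no interval. Libraries were grouped by the mouse named in their titles.

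Values were taken as log2(FPKM + 1), with genes kept at FPKM 1 or more in at least 2 of the 6 leukemia libraries. Differences were fitted with limma 3.58.1 in R 4.3.3 (empirical Bayes with a mean-variance trend), with an F test over 3 groups and 3 pairwise comparisons, adjusted over all 10640 genes at 0.05. On data simulated for the 3 leukemias over 10640 genes the F test recovered 25.4% of genes changed by 1.5-fold, 56.7% by 2-fold and 97% by 4-fold, with 4 false calls. The changed genes, 67, 67 and 66 in number, had a mean FPKM of 10 or more and were raised in 760 alone, with independent noise in each library. In the data 47.7% of genes were called and library differences were correlated between leukemias, so these rates need not carry over. Named genes were, per leukemia, the 8 largest excesses and 5 largest deficits (mean FPKM of 10 or more in the highest leukemia, libraries beyond all others), 8 constant genes by level and 8 by interval, up to 3 varying and 2 constant genes per list, and 10 lineage genes; some of these are not reported here. Members and lists were chosen with earlier results of these data known. Gene order and promoters came from RefSeq (GRCm38.p6), which matched 10104 genes by symbol. Alternatives covered the pseudocount, the filter, scaling, the trend, the samples that give the spread, a library block and each library left out.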

Additional observations from a re-analysis of the deposited data

How the results depend on the processing

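Each count was recomputed under 16 settings. With the spread of all 11 libraries there were 2466 genes in the F test, and in the pairwise comparisons 724 higher in 686 than 713, 1025 the other way, 378 higher in 686 than 760, 405 the other way, 1355 higher in 713 than 760 and 1074 the other way. The cause was not tested. Which leukemia of a pair had more genes higher was not stable: over the settings, 41.4% to 58.99% of the genes that differed between 686 and 713 were higher in 686 (50.8% as reported), 41.04% to 61.3% of those between 686 and 760 in 686 (51.7%), and 42.9% to 57.5% of those between 713 and 760 in 713 (51.4%). Leaving out single libraries gave 2654 to 4837 genes in the F test, lowest without either library of 713. The pairwise ranges were 907 to 2208 (686 over 713), 946 to 2080 (713 over 686), 475 to 868 (686 over 760), 548 to 974 (760 over 686), 1247 to 2282 (713 over 760) and 1175 to 2146 (760 over 713). Genes past 2-fold ranged from 1505 to 1912, constant genes from 4424 to 4809, and the share of the sum of squares between leukemias from 83.8% to 91.8%. A pseudocount of 5 left 816 genes past 2-fold, and a margin of 1.5-fold left 2492 constant genes. Leaving out leukemia 686, 713 or 760 gave 4, 1 and 459 genes that differed between library 1 and library 2, against 0 with all.

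The library numbers are shared by the leukemias, but nothing in the labels pairs them. The correlation across genes of the difference between library 2 and library 1 was 0.66 between 686 and 713, 0.14 between 686 and 760 and 0.22 between 713 and 760. With the library number as a block the F test called 5460 genes, and no count moved by over 1.5 times. Of 291 named genes 231 passed the F test, 151 of them under every setting in which they were tested. Some of these 151 were not tested under all settings, because the filter dropped them in some. Cd40, for example, was tested in 13. The median difference by chromosome and stretch, added after seeing the data, stayed between 0.37 and 0.47 (chromosome 15 in 713), 0.63 and 0.73 (A) and -0.71 and -0.94 (B). The spread rests on 2 libraries per leukemia, and differences among 3 mice say nothing of how common each state is.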

Other observations

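Gene groups beyond those above also differed by leukemia. Of 8 GIMAP GTPases tested, a lymphocyte family encoded in a cluster, 7 passed the F test (limma) and all 7 were highest in 713, and the exception was Gimap4; 4 passed without either library of 713 and 1 with the spread of all 11 libraries. Over all genes 47.7% passed, and 43% of those were highest in 713. Of 7 imprinted genes tested, 5 passed (71.4%, against 47.7% of all genes). Grb10, an adaptor of growth factor receptors, was at FPKM 10.98 and 9.12 in leukemia 686, 0.0699 and 0.233 in 713 and 14.2 and 15.1 in 760, low in 713 alone. The paternally silenced RNA H19 was at 0 and 0.0486 in leukemia 686, 0.368 and 0.498 in 713 and 2.24 and 2.55 in 760, with the order 760, 713, 686. It reached an FPKM of 1 in 760 alone, so the filter took it in through 760. Igf2r, the receptor that clears IGF2, was at 2.27 and 1.61 in leukemia 686, 0.0781 and 0.113 in 713 and 1.35 and 2.105 in 760, low in 713. In the stress lists, Ddit3 (CHOP) was at 3.61 and 4.87 in leukemia 686, 10.7 and 12.5 in 713 and 5.62 and 7.53 in 760, and the pseudokinase gene Trib3, a target of the same response, was at 33.3 and 32.3 in leukemia 686, 12.8 and 11.96 in 713 and 29.9 and 24.1 in 760, so these went in opposite directions between 686 and 713. Scd1, which desaturates fatty acids, was at 1.54 and 1.29 in leukemia 686, 24.4 and 24.7 in 713 and 4.14 and 3.61 in 760, high in 713. Bmf, a pro-apoptotic member of the BCL2 family, was at 2.46 and 2.45 in leukemia 686, 11.4 and 11.6 in 713 and 3.03 and 3.06 in 760, high in 713.

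Among epigenetic regulators, Dnmt3b, a de novo DNA methyltransferase, was at 8.78 and 9.38 in leukemia 686, 4.597 and 4.69 in 713 and 14.9 and 16.5 in 760, with the order 760, 686, 713. Cbx2, a Polycomb subunit, was at 48.3 and 44.01 in leukemia 686, 20.05 and 17.4 in 713 and 52.3 and 47.1 in 760, low in 713. The histone deacetylase gene Hdac1 was constant at 217 and 197 in leukemia 686, 214 and 212 in 713 and 198 and 196 in 760. In the whole chromatin list 12 of 26 members passed (46.2%, close to the 47.7% of all genes), and 7 and 6 without library 1 and 2 of 713. None of the 39 HOX genes in the tables reached the filter.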
